A study of Mus musculus with 20 samples.

Results

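Troponin and tropomyosin are the regulatory proteins of the sarcomeric thin filament, and the 9 genes described here are the slow and fast forms of the 3 troponin subunits (Tnnt1 and Tnnt3, Tnni1 and Tnni2, Tnnc1 and Tnnc2) and the 3 striated muscle tropomyosin genes (Tpm1, Tpm2 and Tpm3). They were taken by symbol from 56941 gene rows of a count table, each matched 1 row, and all 9 passed the filter on low counts that left 16778 genes for testing. RNA came from the whole soleus, a slow hind-limb muscle used in posture, of 20 C57BL/6J mice. The 10 exposed mice carried 3 exposures, hind-limb unloading for 14 days, ionizing radiation and a stress hormone in the diet. The 10 control mice were sham-irradiated and, apart from the 3 exposures, kept alike. No unloading is given for them. Exposed libraries carry the label space, each group had 10 mice, 1 soleus each, and the labels give no age and no dose. The 3 exposures were applied together and cannot be told apart.

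Troponin T binds tropomyosin, troponin I holds the actomyosin interaction off at rest, and troponin C binds the calcium that releases it. Slow and fast fibres use different genes for each subunit. Tnnc1 also serves the heart. Tropomyosin lies along the actin filament and covers the myosin sites: in muscle, Tpm1 gives the fast alpha chain, Tpm3 the slow alpha chain and Tpm2 the beta chain. The 3 tropomyosin genes also make shorter forms in many other cells, and a count per gene adds all of these together.

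The libraries held 17336017 to 43424464 counts, and levels are given as CPM, read counts relative to library size after TMM scaling for library composition. All 8 skeletal fibre markers checked were present, with a summed level of 218235 to 269965 CPM in controls and 196302 to 282362 CPM in exposed libraries. Most of that sum was titin, named after its value was seen, which averaged 191420 CPM (control) and 196223 CPM (exposed). Of these 8 markers 2 were higher and 3 lower at an edgeR adjusted p under 0.05. Over all tested genes 28.7% were higher and 28.9% lower, the shares to set beside each marker count below. Exposed replicates 1 to 4 stood apart in Schwann cell and nerve markers: all 9 were higher in the exposed group, and their sum was 523 to 1514 CPM in those 4 libraries, 99.2 to 189 CPM in exposed replicates 5 to 10 and 99.0 to 197 CPM in controls. The sum of 5 adipocyte markers, of which none was called, was also high there, at 151 to 364 CPM, against 26.0 to 159 CPM in exposed replicates 5 to 10 and 25.0 to 178 CPM in controls. Results that change without these 4 libraries are given both ways, and the part of nerve or fat RNA in the results was not tested. Of 8 smooth muscle markers, whose cells also use Tpm1 and Tpm2, 1 was higher (Lmod1) and none lower, and Myh11 averaged 42.1 CPM (control) and 45.4 CPM (exposed; edgeR adjusted p = 0.194). Of 7 fibroblast markers 2 were higher and 5 lower, with sums of 887 to 2051 CPM (control) and 571 to 907 CPM (exposed), and of 7 endothelial markers none was higher and 3 lower. The part of these cells in the tropomyosin results was not tested.

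In the exposed soleus all 3 slow troponin genes fell and all 3 fast troponin genes rose. The falls were unequal, 4.07-fold for Tnni1, 2.85-fold for Tnnc1 and 1.46-fold for Tnnt1, and the rises lay between 1.30-fold and 1.38-fold. Among tropomyosins Tpm2 fell 1.74-fold and Tpm3 1.33-fold, and Tpm1 did not pass the test. In the edgeR quasi-likelihood test with Benjamini-Hochberg adjustment over all tested genes, 3 members were higher and 5 lower at an adjusted p under 0.05, or 8 of 9, where 57.6% of all tested genes were called (28.7% higher and 28.9% lower). The ranges of the 2 groups did not overlap for 3 members, Tnni1, Tnnc1 and Tpm2, all lower, where 17.4% of all tested genes did not overlap, 6.48% in the higher and 11.0% in the lower direction. The median absolute log2 fold change was 0.46 over the members and 0.27 over all tested genes. In bulk muscle, fewer fibres of a type and less of its RNA per fibre cannot be told apart.

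Tnni1, slow troponin I, ranged from 738.8 to 1037 CPM in controls (median 851) and from 76.8 to 354.8 CPM in exposed libraries (median 188). The highest exposed library stood far below the lowest control. This was a log2 fold change of -2.03 ± 0.28 (SE, n = 10 each; edgeR adjusted p = 3.44e-06). The exposed libraries spread widely: exposed replicates 4 to 8 held 76.8 to 161 CPM and exposed replicates 1, 2, 3, 9 and 10 held 215 to 355 CPM.

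Tnnc1, troponin C of slow and heart muscle, ranged from 1312 to 1639 CPM in controls (median 1435) and from 281.3 to 841.4 CPM in exposed libraries (median 484). Its log2 fold change was -1.51 ± 0.18 (SE, n = 10 each; edgeR adjusted p = 3.15e-07). The lowest values were again in exposed replicates 4, 5 and 7, at 339, 281 and 313 CPM, and the highest in exposed replicates 9 and 10, at 755 and 841 CPM.

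Tnnt1, slow troponin T, ranged from 925.6 to 1141 CPM in controls (median 1059) and from 499.7 to 1149 CPM in exposed libraries (median 653). Here the groups overlapped. Exposed replicates 9 and 10 held 1149 and 1032 CPM, the level of controls, while the other 8 exposed libraries held 500 to 716 CPM, all below the lowest control. The log2 fold change was -0.54 ± 0.13 (SE, n = 10 each; edgeR adjusted p = 0.000766), with 9 of 10 exposed libraries below the control mean.

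The windows before the start sites of the 3 slow genes, which fell together, and of the fast gene Tnnc2, which rose, are shown for comparison. Each is the 250 bases before the RefSeq start on GRCm38.p6, written 5′ to 3′ on the gene's own strand, with matches to 2 motifs in capitals: the E-box CANNTG, bound by myogenic factors, and the M-CAT motif CATTCC on either strand, bound by TEAD factors. Tnnt1 lies on the minus strand at chr7:4515976-4516225, Tnni1 on the plus strand at chr1:135799171-135799420 (the first of 2 RefSeq starts), Tnnc1 on the plus strand at chr14:31208062-31208311 and Tnnc2 on the minus strand at chr2:164779735-164779984.
Tnnt1: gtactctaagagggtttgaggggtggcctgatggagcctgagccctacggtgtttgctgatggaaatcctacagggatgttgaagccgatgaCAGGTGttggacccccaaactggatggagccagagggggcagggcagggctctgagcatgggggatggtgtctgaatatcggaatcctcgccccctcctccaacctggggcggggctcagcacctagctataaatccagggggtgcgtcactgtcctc
Tnni1: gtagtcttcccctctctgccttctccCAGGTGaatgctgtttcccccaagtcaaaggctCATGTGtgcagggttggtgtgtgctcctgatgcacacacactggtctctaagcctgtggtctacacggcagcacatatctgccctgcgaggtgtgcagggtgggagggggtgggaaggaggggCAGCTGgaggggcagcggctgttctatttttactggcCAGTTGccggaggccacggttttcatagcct
Tnnc1: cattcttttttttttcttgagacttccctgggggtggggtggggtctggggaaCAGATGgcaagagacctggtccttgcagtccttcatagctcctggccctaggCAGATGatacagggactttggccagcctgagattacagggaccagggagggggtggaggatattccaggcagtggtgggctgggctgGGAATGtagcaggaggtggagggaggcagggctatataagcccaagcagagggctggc
Tnnc2: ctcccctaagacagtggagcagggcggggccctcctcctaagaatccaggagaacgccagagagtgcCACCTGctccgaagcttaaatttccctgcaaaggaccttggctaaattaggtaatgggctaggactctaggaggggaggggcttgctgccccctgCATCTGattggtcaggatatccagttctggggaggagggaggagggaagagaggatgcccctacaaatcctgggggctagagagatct
The Tnni1 window held 4 E-boxes, beginning 224, 191, 68 and 31 bases before the start, and the Tnnt1 window held 1, at 158 bases. The window of the other Tnni1 start overlaps the first and held 2, at 158 and 121 bases. These are the same sites as those at 68 and 31 bases in the first window. The Tnnc1 window held 2, at 197 and 145 bases, and the only M-CAT match of the 4 windows, at 58 bases. The Tpm1 window, not shown, also held an M-CAT match, at 56 bases. The window of the fast gene Tnnc2 held 2 E-boxes, at 183 and 88 bases. The fast genes Tnnt3 and Tnni2 had no promoter entry, so 1 fast troponin gene is shown. Over 32851 promoter windows of this length, 66.2% held an E-box and 12.6% an M-CAT motif. MEF2 and CArG motifs, each searched as 1 strict pattern on both strands, had no match in the 4 windows shown. These patterns were present in 0.508% and 1.47% of all windows, and looser forms of the motifs were not searched. A match is a stretch of letters, not a shown binding site.

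The fast troponin genes rose by similar amounts. Tnnt3, fast troponin T, ranged from 1902 to 2462 CPM in controls (median 2247) and from 2246 to 3680 CPM in exposed libraries (median 2902), a log2 fold change of 0.39 ± 0.09 (SE, n = 10 each; edgeR adjusted p = 0.000247). Tnni2, fast troponin I, ranged from 915.6 to 1142 CPM and from 1115 to 1557 CPM, with medians of 1083 and 1397 CPM and a log2 fold change of 0.38 ± 0.07 (SE, n = 10 each; edgeR adjusted p = 2.08e-05). Tnnc2, fast troponin C, ranged from 357.1 to 495.6 CPM and from 325.4 to 801.5 CPM, with medians of 429 and 616 CPM and a log2 fold change of 0.46 ± 0.13 (SE, n = 10 each; edgeR adjusted p = 0.00215). All 3 overlapped between the groups. Exposed replicate 3 held the lowest Tnnc2 of all 20 libraries.

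For the fast genes the overlap lay in exposed replicates 1 to 4. Exposed replicates 5 to 10 stood above the highest control in all 6 libraries for each of the 3 genes, at 2711 to 3680 CPM for Tnnt3, 1272 to 1557 CPM for Tnni2 and 607 to 801 CPM for Tnnc2. In exposed replicates 1 to 4, 2 libraries did so for Tnnt3, 3 for Tnni2 and 1 for Tnnc2. Without replicates 1 to 4, 51.3% of all genes tested were called (25.2% higher and 26.1% lower), 4 members were higher and 4 lower, and the rises of the 3 fast troponins were 1.46-fold, 1.41-fold and 1.60-fold (edgeR adjusted p = 1.75e-07, 1.02e-07 and 5.95e-08).

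**Figure D1:**
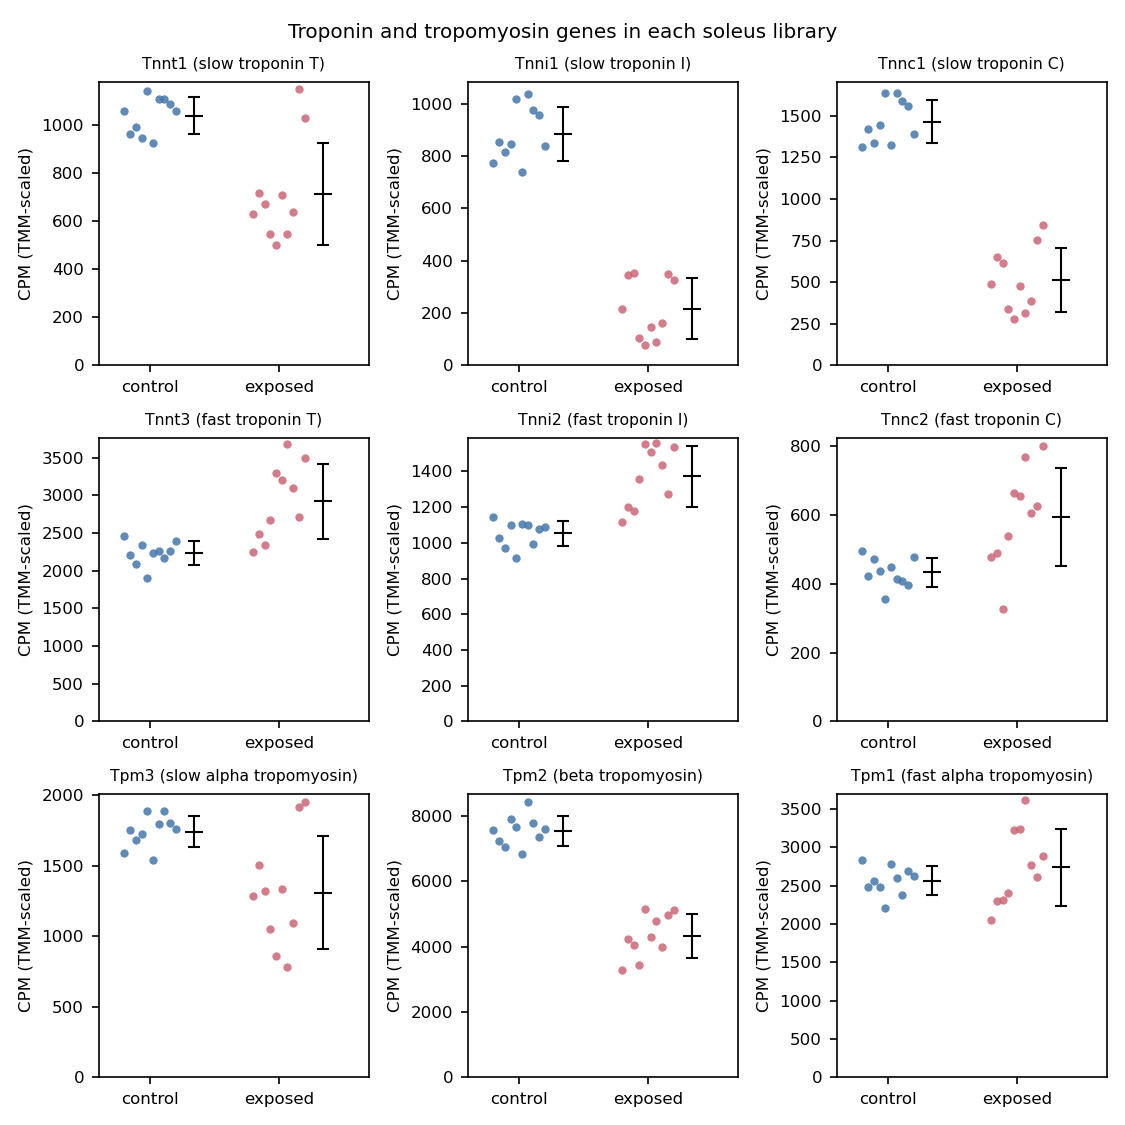
Levels of the 9 genes in each of 10 control and 10 exposed libraries, in TMM-scaled CPM on linear axes from 0. Points are libraries in order of sample number, bars are mean ± SD; Tnni1, Tnnc1 and Tpm2 show no overlap between groups, and exposed replicates 9 and 10 reach the control range for Tnnt1 (1149 and 1032 CPM).

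Comparing slow with fast gene within each library removes the scaling between libraries. The log2 ratio of Tnni1 to Tnni2 counts went from -0.26 ± 0.23 in controls to -2.86 ± 0.98 in exposed libraries (SD, n = 10 each), a 6.09-fold shift towards the fast gene. For Tnnc1 to Tnnc2 it went from 1.76 ± 0.26 to -0.26 ± 0.72, a 4.06-fold shift. Both ratios were separate in all 20 libraries, with controls at -0.58 to 0.15 against exposed at -4.33 to -1.73 for troponin I, and at 1.40 to 2.20 against -1.29 to 0.91 for troponin C. These are ratios of counts, in which gene length is not taken out, and only their shift between groups is read here.

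The ratio of Tnnt1 to Tnnt3 went from -1.10 ± 0.17 to -2.07 ± 0.47, a 1.95-fold shift, and 9 of 10 exposed libraries lay below all controls. Exposed replicate 9 alone, at -1.24, lay inside the control range of -1.31 to -0.74. By 2-sided permutation tests with 100000 resamples the adjusted p over 5 ratios was 3.33e-05 for troponin I and C and 7.5e-05 for troponin T. The unadjusted p of 2e-05 behind the first value is the smallest that these resamples can give.

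**Figure D2:**
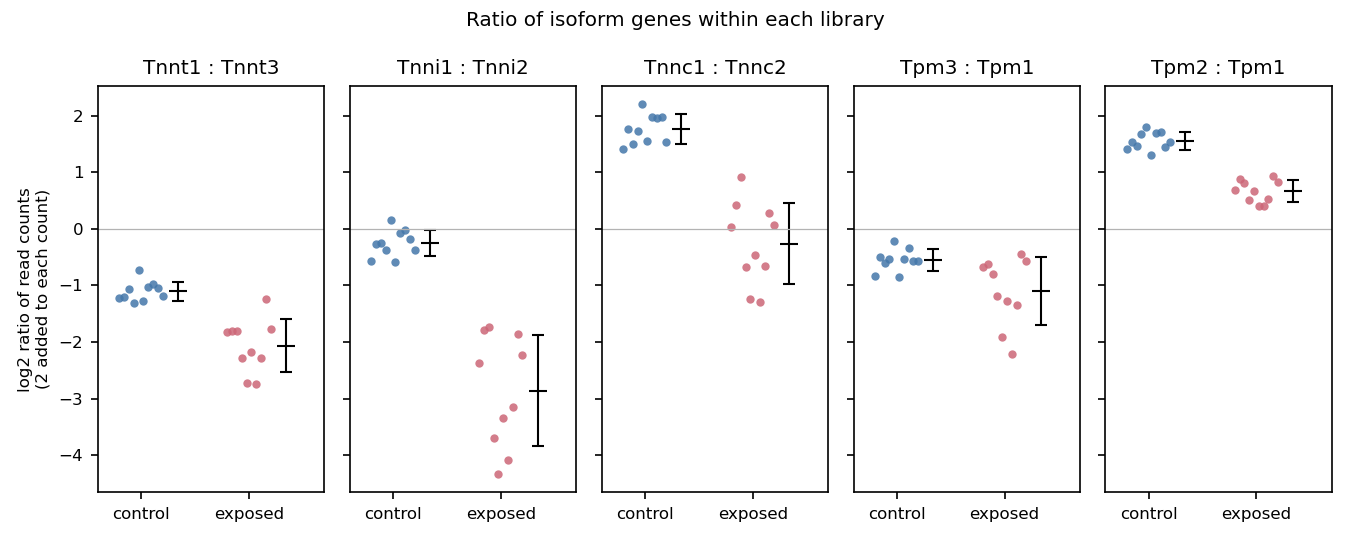
The log2 ratio of read counts of paired genes within each library, with 2 added to each count, for 10 control and 10 exposed libraries (points; bars are mean ± SD). The troponin I, troponin C and Tpm2 to Tpm1 ratios are separate between groups, while Tpm3 to Tpm1 overlaps in 5 exposed libraries.

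The 3 subunits did not shift equally. Taking the troponin T ratio minus the troponin I ratio in each library, the mean was -0.85 ± 0.11 in controls and 0.80 ± 0.58 in exposed libraries (SD, n = 10 each), so troponin I shifted 3.12-fold further than troponin T, with all 10 exposed libraries above all controls. Troponin C shifted 2.08-fold further than troponin T (9 of 10 exposed libraries above all controls), and troponin I shifted further than troponin C by 0.58 on the log2 scale (9 of 10 below all controls). The adjusted p over these 3 differences was 6e-05 for each (2-sided permutation test, 100000 resamples).

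The inequality lay within the slow genes. The log2 ratio of Tnnt1 to Tnni1 counts stood at 0.10 to 0.46 in controls and at 0.92 to 2.70 in exposed libraries, and that of Tnnt1 to Tnnc1 at -0.61 to -0.31 against 0.13 to 0.83. Slow troponin T thus gained on both of its slow partners in every exposed library. The log2 ratio of Tnni1 to Tnnc1 stood at -0.84 to -0.66 in controls and at -1.87 to -0.79 in exposed libraries, with overlap. The means of the fast pairs moved less and their spread was wider in exposed libraries. Tnnt3 to Tnni2 averaged 1.08 in both groups, at 1.01 to 1.14 in controls and 0.98 to 1.24 in exposed libraries. Tnnt3 to Tnnc2 averaged 2.37 (2.15 to 2.51) and 2.32 (2.12 to 2.85), and Tnni2 to Tnnc2 averaged 1.28 (1.04 to 1.44) and 1.24 (0.94 to 1.86). All 3 fast pairs overlapped between the groups. These 6 pairs were compared after the values were seen and are given without a test.

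Per kilobase of exon (the union of exons in GENCODE M21), slow genes made up 72.1 ± 3.6% of troponin C, 25.9 ± 3.1% of troponin I and 25.1 ± 2.3% of troponin T transcripts in controls (SD, n = 10). In exposed libraries the slow shares were 39.6 ± 11.6%, 6.35 ± 3.58% and 15.1 ± 4.1% (SD, n = 10). Troponin C went from mostly slow in every control (67.0 to 77.9%) to 23.8 to 59.1% in exposed libraries, of which exposed replicates 2 and 3 were above 50% (50.6 and 59.1%). With the length of the longest coding transcript instead, the control shares were 76.5%, 35.9% and 32.2% and the exposed shares 45.0%, 9.72% and 20.0%. By that length 4 exposed libraries were above 50% slow troponin C, replicates 2, 3, 9 and 10 at 56.4, 64.6, 54.0 and 50.5%.

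The sum of slow and fast genes gives each subunit's RNA level relative to the rest of the library, not an amount per muscle. Troponin C fell from 1949 ± 82 to 1239 ± 253 CPM per kb (SD, n = 10 each), a log2 change of -0.68 ± 0.09 (SE; adjusted p over 4 sums 4e-05, permutation test), with no overlap between the groups. Its rise in Tnnc2 was small beside its fall in Tnnc1. The troponin T sum stood at 1883 ± 97 and 2171 ± 328 CPM per kb, a log2 change of 0.19 ± 0.07 (adjusted p = 0.022, permutation test), and the troponin I sum at 949 ± 43 and 976 ± 98 CPM per kb (0.04 ± 0.05, adjusted p = 0.489, permutation test). With the length of the longest coding transcript, the call for troponin T was lost (log2 change 0.14, adjusted p = 0.0722) and the troponin I sum was lower in exposed libraries (-0.12, adjusted p = 0.0227). The troponin T sum kept its direction under both lengths and the troponin I sum did not. Without exposed replicates 1 to 4 the troponin I sum was higher (0.13, adjusted p = 0.0045, exact permutation test) and the troponin T sum had a log2 change of 0.35 (adjusted p = 0.000333, exact permutation test). Whether the sums changed differently from each other was not tested.

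**Figure D3:**
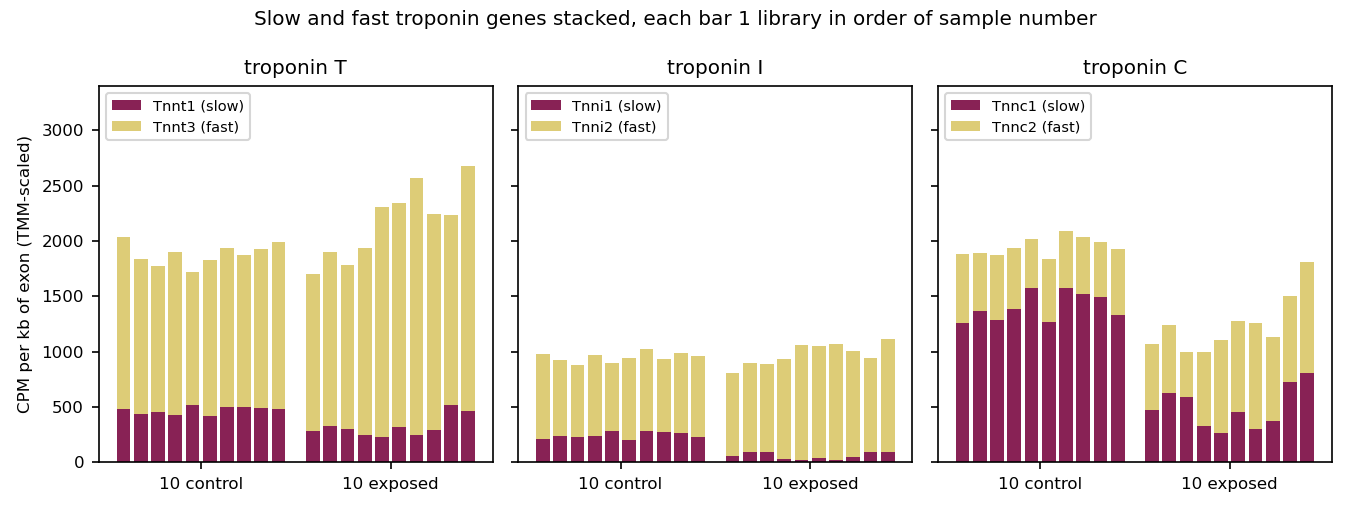
Slow (dark) and fast (light) troponin genes stacked for each subunit, in TMM-scaled CPM per kb of exon, 1 bar per library in order of sample number. The mean slow part is smaller in exposed libraries in every panel, but Tnnt1 reaches control levels in exposed replicates 9 and 10 (521 and 468 CPM per kb). The whole troponin C bar falls from 1833 to 2090 in controls to 995 to 1810 CPM per kb in exposed libraries.

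Tpm2, the beta tropomyosin gene, was the most abundant member in counts and fell in every exposed library. It ranged from 6850 to 8429 CPM in controls (median 7592) and from 3279 to 5146 CPM in exposed libraries (median 4265), with a log2 fold change of -0.80 ± 0.08 (SE, n = 10 each; edgeR adjusted p = 4.15e-09). Its coefficient of variation in exposed libraries, 15.5%, was below the 53.3% of Tnni1 and the 37.6% of Tnnc1. Against the fast alpha gene Tpm1, its log2 count ratio went from 1.56 ± 0.16 to 0.67 ± 0.20 (SD, n = 10 each), a 1.85-fold shift with no overlap (permutation test, adjusted p = 3.33e-05).

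Tpm3, the slow alpha gene, ranged from 1542 to 1888 CPM in controls (median 1757) and from 781.3 to 1954 CPM in exposed libraries (median 1306). Exposed replicates 9 and 10, at 1918 and 1954 CPM, were above every control, and the other 8 exposed libraries, at 781 to 1504 CPM, were below every control. The log2 fold change was -0.41 ± 0.14 (SE, n = 10 each; edgeR adjusted p = 0.0118). Without exposed replicates 1 to 4 the fall did not pass the test (log2 fold change -0.39, edgeR adjusted p = 0.0739). The Tpm3 to Tpm1 log2 ratio went from -0.56 ± 0.19 to -1.10 ± 0.60 (permutation test, adjusted p = 0.00916), and 5 exposed libraries lay below all controls.

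Tpm1, the fast alpha gene, ranged from 2205 to 2838 CPM in controls (median 2581) and from 2045 to 3622 CPM in exposed libraries (median 2690). The difference was not past the threshold (log2 fold change 0.10 ± 0.09 SE, n = 10 each; edgeR adjusted p = 0.348). Exposed replicates 1 to 4 held 2045 to 2402 CPM and exposed replicates 5 to 10 held 2608 to 3622 CPM. Without replicates 1 to 4 Tpm1 was higher by 0.26 on the log2 scale (edgeR adjusted p = 0.00219), and with library size alone as scaling it was 1.12-fold higher over all libraries (edgeR adjusted p = 0.0481). The sum of the 3 tropomyosin genes fell from 3274 ± 158 to 2127 ± 301 CPM per kb (SD, n = 10 each), a log2 change of -0.63 ± 0.07 (SE; adjusted p = 4e-05, permutation test), with no overlap.

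The exposed libraries differed among themselves more than the controls did for every member. The coefficient of variation was 6.00 to 11.8% over the 9 genes in controls and 12.3 to 53.3% in exposed libraries. For the slow genes the depth of the fall ran along the same libraries: exposed replicates 5 and 7 were among the 3 lowest for each of Tnni1, Tnnc1, Tnnt1 and Tpm3, and exposed replicates 9 and 10 were the 2 highest for Tnnc1, Tnnt1 and Tpm3. In exposed replicate 5 the log2 departure from the control mean was -3.52 for Tnni1, -2.38 for Tnnc1, -1.05 for Tnnt1 and -1.02 for Tpm3. In exposed replicate 9 the same values were -1.33, -0.95, 0.15 and 0.14.

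**Figure D4:**
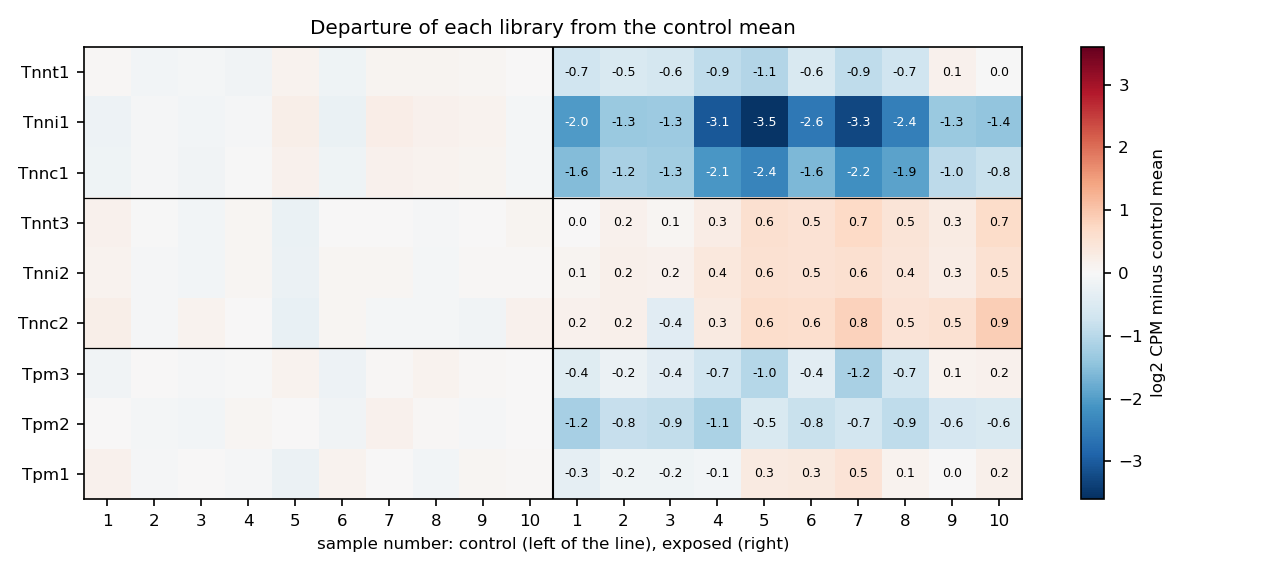
Log2 CPM minus the control mean for each gene (rows) and library (columns, by sample number within group), with values printed for exposed libraries. Blue is lower and red is higher; Tnni1 is lowest in exposed replicate 5 (-3.52), and Tnnt1 and Tpm3 lie at or above the control mean in exposed replicate 9.

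Among the 10 controls the subunit ratios also varied together. Pearson's r was 0.907 for troponin T and I (adjusted p = 0.00114, Spearman's rho 0.903, adjusted p = 0.00216), 0.894 for troponin I and C (adjusted p = 0.00114, rho 0.794, adjusted p = 0.0126) and 0.767 for troponin T and C (adjusted p = 0.00988, rho 0.673, adjusted p = 0.0402), by permutation tests adjusted over 3 pairs. Without the 2 libraries farthest from the median of the first ratio, r was 0.926, 0.854 and 0.730. Control replicate 5 held the slowest profile in all 3 ratios, at -0.74, 0.15 and 2.20. The same 3 pairs were planned for the exposed group as well but were not computed, so the adjustment covers the control pairs only. The exposed libraries spread more widely in these ratios than controls did. Their troponin I ratios were -1.73 to -2.38 in replicates 1, 2, 3, 9 and 10 and -3.15 to -4.33 in replicates 4 to 8. This grouping was read from the values and is not a shown division of the libraries.

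In order of level per kb of exon, Tpm2 led in controls (2592 ± 156 CPM per kb, SD, n = 10), above Tnnt3 (1411 ± 100) and Tnnc1 (1408 ± 124), whose ranges overlapped. Tnni2, Tnnc2, Tnnt1, Tpm1 and Tpm3 followed, and Tnni1 was last at 246 ± 28.9 CPM per kb, with a range overlapping that of Tpm3. In exposed libraries Tnnt3 came first (1847 ± 315 CPM per kb), ahead of Tpm2 (1489 ± 230) with overlapping ranges. Tnnc1 dropped to the fifth place (494 ± 186), its range overlapping those of Tnnc2 before it and Tpm1 after it. Tnni1 stayed last (60.4 ± 32.2), below the range of every other member. With the longest coding transcript as length, Tpm2, Tnnt3 and Tnnc1 kept the first 3 places in controls, but Tnnc2 rather than Tnni1 was last there (618 ± 60.2 CPM per kb). By that length Tnnc1 took place 6 in exposed libraries (714 ± 269 CPM per kb), and Tnni1 was again last.

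After subtracting each group's mean, the genes whose log2 CPM ran closest to each member over the 20 libraries were as follows. For Tnni1 they were the slow myosin heavy chain Myh7 (r = 0.970), the slow light chain Myl2 (0.967) and Tnnc1 (0.955). For Tnnc1 they were Myh7 (0.985), Tpm3 (0.957) and Tnni1, and for Tnnt1 they were Tpm3 (0.912), Tnnc1 (0.884) and the kinase gene Map3k4 (0.878). Tnnt3 and Tnni2 were each other's closest gene (0.958), followed by Tpm1 (0.914 and 0.903) and the glycolytic enzyme Aldoa (0.904 and 0.914). Tnnc2 ran closest to Cox6c (0.90) and Atp5j (0.871), nuclear genes of mitochondrial proteins, and then to Tnnt3 (0.851). Cox6c and Atp5j were both lower in mean level in exposed libraries. Among members, Tpm2 stood between the sets, with r of 0.49 to 0.61 to the fast troponins and 0.06 to 0.40 to the slow ones. These are descriptions over libraries that share scaling and depth, and carry no test. The exposed libraries, which spread more widely, weigh most in them: Tnni1 departed from the control mean by -3.52 to -1.31 in exposed libraries and by -0.25 to 0.24 in controls.

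Myh7 itself went from 8134 to 11972 CPM in controls to 2353 to 7271 CPM in exposed libraries, also lowest in exposed replicate 5 and highest in replicate 9. Its 2.19-fold fall was smaller than that of Tnni1 or Tnnc1 and larger than that of Tnnt1 or Tpm3, a set of values whose differences were not tested. Of the fast heavy chains, Myh2 (type 2A) went from 8650 to 11368 CPM in controls to 162 to 1035 CPM in exposed ones. Myh1 (type 2X) went from 1632 to 4377 CPM to 10591 to 19158 CPM, and Myh4 (type 2B) from 19.5 to 1490 CPM to 8006 to 15686 CPM. None of the 3 overlapped between groups, while all 3 fast troponins did.

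Troponin I and T genes lie in pairs in the genome. In GENCODE M21, Tnnt1 lies 1923 bases from the heart gene Tnni3, Tnni1 is separated from the heart gene Tnnt2 by Lad1, and the fast genes Tnni2 and Tnnt3 lie 54426 bases apart with Lsp1 between them. Tnni3 held 3 to 9 counts per control library and 2 to 10 per exposed library and was too low to be tested. Lsp1, between the rising fast genes, stood at 19.8 and 22.0 CPM. Tnnc1 overlaps Nisch (179 and 158 CPM in control and exposed means), Tnnt3 overlaps Prr33 (66.9 and 87.4 CPM) and Tnnc2 overlaps Ube2c (1.07 and 1.30 CPM), each on the opposite strand. Whether counting used strand was not given in the sources used here, and reads of these partners cannot be told apart from those of the members. The Tpm3 relative Tpm3-rs7 stood at 4.32 and 3.49 CPM.

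Of 5 markers of satellite cells, the muscle stem cells, 4 were higher and none lower, where 28.7% of all tested genes were higher. The sums were 45.0 to 52.4 CPM (control) and 54.8 to 72.0 CPM (exposed), and the 4 rises lay between 1.17-fold and 1.37-fold. The part of satellite cells in the next result was not tested. Tnnt2, heart troponin T, which is also made in immature muscle, rose at a low level, from 2.58 to 4.17 CPM in controls to 4.97 to 9.86 CPM in exposed libraries with no overlap, a 2.05-fold rise (edgeR adjusted p = 4.29e-08). Of the other heart markers, Myh6 stood at 12.8 and 13.7 CPM (edgeR adjusted p = 0.364), and Nppa, Nppb, Mybpc3 and Tnni3 were too low to be tested. Tpm4, a tropomyosin of non-muscle cells, averaged 39.2 ± 5.8 CPM (control) and 24.4 ± 1.9 CPM (exposed; SD, n = 10 each), a 1.60-fold fall (edgeR adjusted p = 1.49e-08).

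The other genes of the thin filament, of its ends and of its turnover gave a wider setting. Of 34 genes, Tnnt2 and Tpm4 among them, 33 were tested, 6 were higher and 18 lower, again beside 57.6% called over all genes, with a median log2 fold change of -0.20 against 0.02 over all tested genes. Without exposed replicates 1 to 4, 20 were called, 6 higher and 14 lower, beside 51.3% over all genes. Skeletal actin, Acta1, the core of the filament, averaged 15460 ± 1136 CPM (control) and 7238 ± 1529 CPM (exposed; SD, n = 10 each), a 2.14-fold fall (edgeR adjusted p = 1.65e-09), with no exposed library above 9416 CPM and no control below 13724. Cfl2, the muscle cofilin that severs actin, and its partner Wdr1 fell 1.59-fold and 2.44-fold, and Cap2, which recycles actin monomers, fell 1.45-fold. Tmod1, which caps the pointed end, averaged 88.6 and 140.1 CPM, a 1.58-fold rise (edgeR adjusted p = 8.58e-09). Its relatives Tmod2 and Tmod4 and the leiomodin Lmod1 were higher as well, while Lmod2 and Lmod3 were lower. Lmod1 is also the smooth muscle marker that was higher. Tmod2 spread widely in exposed libraries (33.3 ± 13.0 CPM, against 19.3 ± 1.6 CPM in controls, SD). The part of other cells in these rises was not tested. Nebulin, Neb, the ruler along the filament, stood at 22064 and 21266 CPM, not past the threshold (edgeR adjusted p = 0.472). The sixth higher gene was the formin Fhod1, named after its value was seen, as were Tmod2, Tmod4, Lmod1, Lmod2, Lmod3 and Neb.

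**Figure D5:**
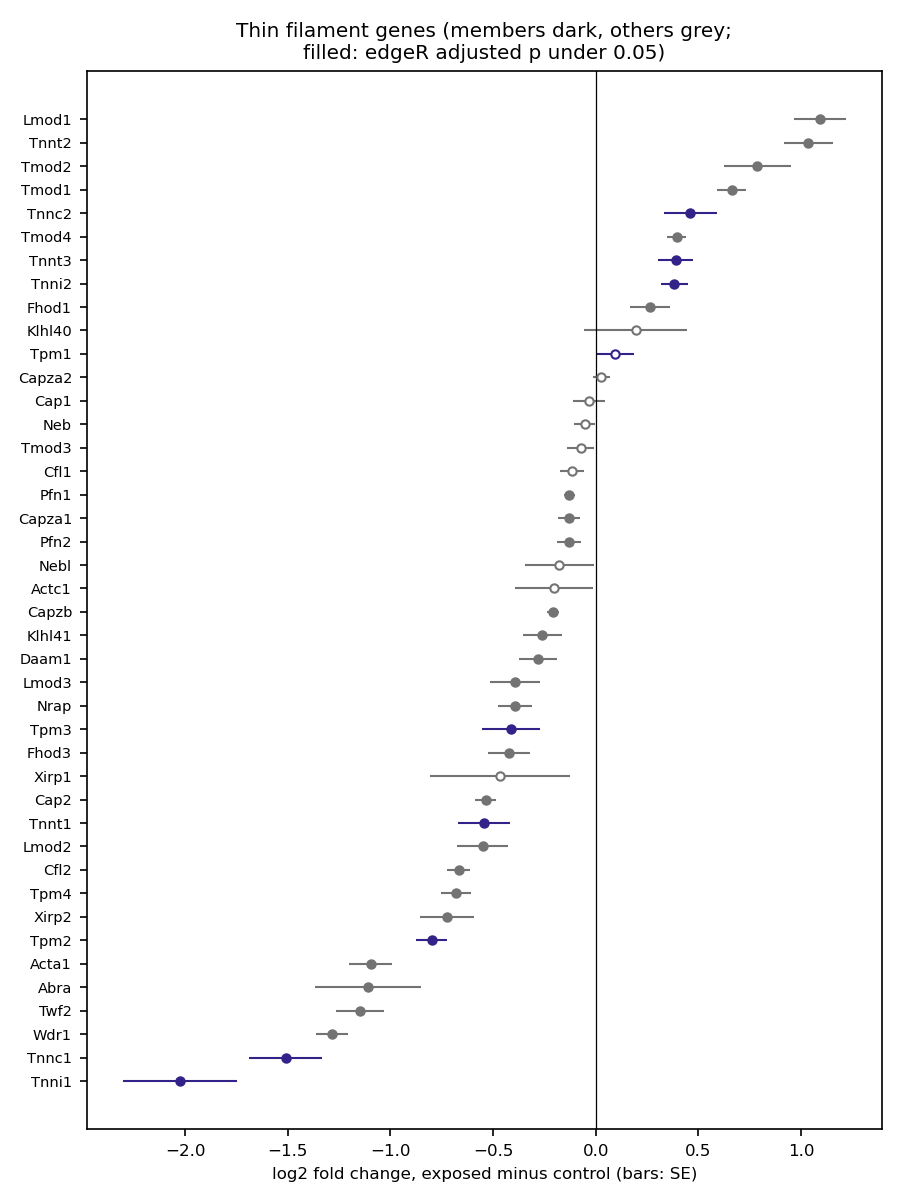
Log2 fold change, exposed minus control, of the 9 members (dark) and 33 other thin filament genes (grey), with SE bars; filled points have an edgeR adjusted p under 0.05. Tnni1 (-2.03) and Tnnc1 (-1.51) lie at the low end, the 3 fast troponin genes between 0.38 and 0.46, and Lmod1 and Tnnt2 at the high end.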

How the data were processed

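Ribosomal RNA was depleted from 90 ng of soleus RNA and libraries were read in pairs on a NovaSeq X Plus, per the labels' protocols. The authors deposited raw counts per Ensembl gene. The submitters' processing notes name MultiQC 1.15, Subread, featureCounts 1.5.1, edgeR and GRCm39; roles, strand and annotation release were not given in the sources used here. Names (52000 of 56941 rows), lengths and neighbours came from GENCODE M21 on GRCm38, and 7 of 9 members matched a RefSeq promoter.

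Counts of all genes were fitted in R 4.3.3 with edgeR 4.0.16 (filterByExpr, minimum count 10, TMM, robust quasi-likelihood, no covariate), tested on simulated counts first. Ratios add 2 counts to each gene. Standard errors come from the spread of log2 CPM within groups. Permutation tests used scipy 1.17.1. Alternatives were other scalings, filters and lengths, DESeq2 1.42.0, limma 3.58.1 voom, a block on sample number and libraries left out. The members, the lists and the comparison without exposed replicates 1 to 4 were chosen with earlier results of these data known. The text names all members, the 6 thin filament genes of smallest p, Tnnt2, Tnni3, Tpm4, 4 myosin heavy chains, the 3 genes closest to each troponin member, neighbouring or overlapping genes, and genes said to be named after their values were seen.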

Additional observations from a re-analysis of the deposited data

How the results depend on the processing

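The 5 ratios and the 3 differences between subunits kept their direction and their side of the threshold under a pseudocount of 0.5, group medians, without exposed replicates 1 to 4 and with each library left out. Of the 9 members 8 were called under each scaling tried except library size alone, where 9 were. Against a fold of 1.2 (glmTreat), 5 members were called, 1 of them higher (Tnni2), and 14 thin filament genes, 9 of them lower; Tnnt3, Tnnc2 and Tpm3 were lost. At an adjusted p under 0.01 Tpm3 was lost. The summed troponin I level had a log2 change of 0.11 with library size alone, 0.13 without exposed replicates 1 to 4, -0.12 with the longest coding transcript and -0.29 with no length, each past the threshold, and the troponin T sum lost its call at 0.14 under both length choices. With sample number as a replicate block, 8 members were called, 3 higher and 5 lower, and 23 thin filament genes; no call of a member, ratio or sum changed. Same-numbered samples did not deviate together (correlations -0.132 to 0.0982), so the numbers were not taken as pairs. Leaving out single libraries moved the Tnni1 log2 fold change between -2.13 and -1.93, that of Tpm3 between -0.49 and -0.35 and that of Tpm1 between 0.04 and 0.13. Levels rest on 17336017 counts or more per library, and among the troponins Tnni3 was the one too low to test.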
